A study of Mus musculus with 5 samples.

Results

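The genes that move cholesterol inside a macrophage, store it as ester and switch its synthesis on or off were read in RNAseq libraries of sorted aortic macrophages. They are 8 of the 55487 genes in the count table, taken by a list of symbols and not by a cut on their values. The list was made with earlier results of these data known. It holds *Lipa*, *Npc1* and *Npc2* of the lysosome, *Soat1* and *Nceh1* of cholesteryl ester turnover, and *Srebf2*, *Scap* and *Insig1* of the sterol sensor. All 8 symbols matched a single row each. In GRCm38 (GENCODE M21), *Lipa* lies at chr19:34492318-34527474, *Npc2* at chr12:84754562-84773152, *Soat1* at chr1:156424525-156474331 and *Npc1* at chr18:12189692-12236400, all on the minus strand. On the plus strand lie *Nceh1* at chr3:27182965-27284608, *Srebf2* at chr15:82147181-82205379, *Scap* at chr9:110333288-110384950 and *Insig1* at chr5:28071363-28078662.

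Libraries labelled WT came from *Zeb1*WT/*Apoe*KO mice, and those labelled KO from mice called *Zeb1*∆M/*Apoe*KO, all male. In both, *Apoe* was deleted and *Zeb1* carried loxP sites, and the KO mice also expressed Cre from the *Lyz2* (LysM) locus, so that recombination was limited to myeloid cells that use this promoter. Mice were 18 weeks old, after 8 weeks on chow and 10 weeks on a Western diet. Cells were sorted from digested aortas as viable CD45+ and CD11b+ cells that also carried the macrophage antigen encoded by *Adgre1*. The paper's isolation methods name the whole aorta as the source, and its sequencing methods the aortic sinus. Per the methods each genotype was read from a mix of cells from 3 mice, with libraries in triplicate. The labels, however, give 2 WT and 3 KO libraries. Nothing in the labels says which animals stand behind which library, so p values measure only the spread between these libraries, which may be technical.

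A macrophage that takes up lipoproteins hydrolyzes their cholesteryl esters in the lysosome, and the freed cholesterol is passed out of the lysosome by the Niemann-Pick C proteins. Cholesterol that reaches the endoplasmic reticulum can be re-esterified and kept in lipid droplets, which gives foam cells their appearance, and is released from there by neutral hydrolases. The same membrane holds the sensor for sterols. When sterols are scarce, SCAP escorts SREBP2 to the Golgi, where it is cut to become a transcription factor for synthesis and uptake genes, and when sterols are plentiful INSIG1 holds the pair back.

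Total counts ran from 20118545 to 50649912 per library, and a floor of 3 counts, below which no signal was read, corresponded to 0.0592 to 0.149 CPM (counts scaled to the library's total). Floors cover counting error only, since amplified reads without molecular identifiers are not independent molecules. Between 870 and 4421 genes reached 100 counts in a library. KO replicate 1 stood apart with the fewest of these (870), the most genes over the floor (16423, against 5009 to 6931 in the others) and a normalization factor of 0.515 (1.03 to 1.42 in the others). Over the table, 7341 genes reached 100 counts somewhere, of which 3579 (48.8%) did so in a single library and 299 (4.07%) in all 5. *Zeb1* was counted in KO replicate 1 only, with 22 counts, so it did not check the labels. *Apoe*, deleted in all mice, had 0 to 86 counts, and the Cre locus gene *Lyz2* had 596080 and 777264 counts in WT and 161607, 856923 and 869804 in KO. Of 12 macrophage markers, 8 to 11 were over the floor in each library, summing to 35783 and 36098 CPM in WT and 23059 to 40178 CPM in KO. These sums were mainly *Lyz2*, and mainly *C1qb* in KO replicate 1, so they say little about the other markers. Smooth muscle, B cell and adipocyte markers summed to at most 2.67 CPM in any library. Endothelial markers summed to 72.3 and 72.1 CPM in WT and 2.38, 0.168 and 51.9 CPM in KO, higher in both WT libraries than in any KO library, with *Cdh5* at 0 in all 5, and their part in the results was not tested. The sum was mainly *Kdr* in WT replicate 1 (1455 counts) and *Pecam1* in WT replicate 2 and KO replicate 3 (2487 and 2628 counts). In such bulk samples fewer cells of a type and less RNA per cell cannot be told apart. The sorted antigen's gene *Adgre1* had at least 1068 counts everywhere, while *Cd68* had 0 and 10 counts and *C1qa* 0 and 5 counts in WT and KO replicate 1. In the same libraries *C1qb* had 38760 and 398502 counts, *Cd14* 59319 and 33 counts, *C1qc* 8364 and 257 counts and *Csf1r* 502 and 25 counts. *Itgam*, which encodes CD11b, was at 0 in KO replicate 1.

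Of the 8 genes, 7 reached 100 counts in at least 1 library and *Srebf2* in none, and the covered libraries differed from gene to gene. At least 100 counts were reached by 1 of them in WT replicate 1, 4 in WT replicate 2, 0 in KO replicate 1, 3 in KO replicate 2 and 5 in KO replicate 3. Of the 21705 genes over the floor anywhere, 7.90%, 20.4%, 4.01%, 14.6% and 19.1% did so in the same libraries. Of the 7 genes, 3 (42.9%) did so in a single library and 0 in all 5, close to the shares over the whole table. Summed over the 8 genes, levels were 30.8 and 1970 CPM in the WT libraries and 4.39, 895 and 1775 CPM in the KO libraries. Both replicate 1 libraries therefore lay far below the other three, and the genotypes overlapped.

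**Figure D1:**
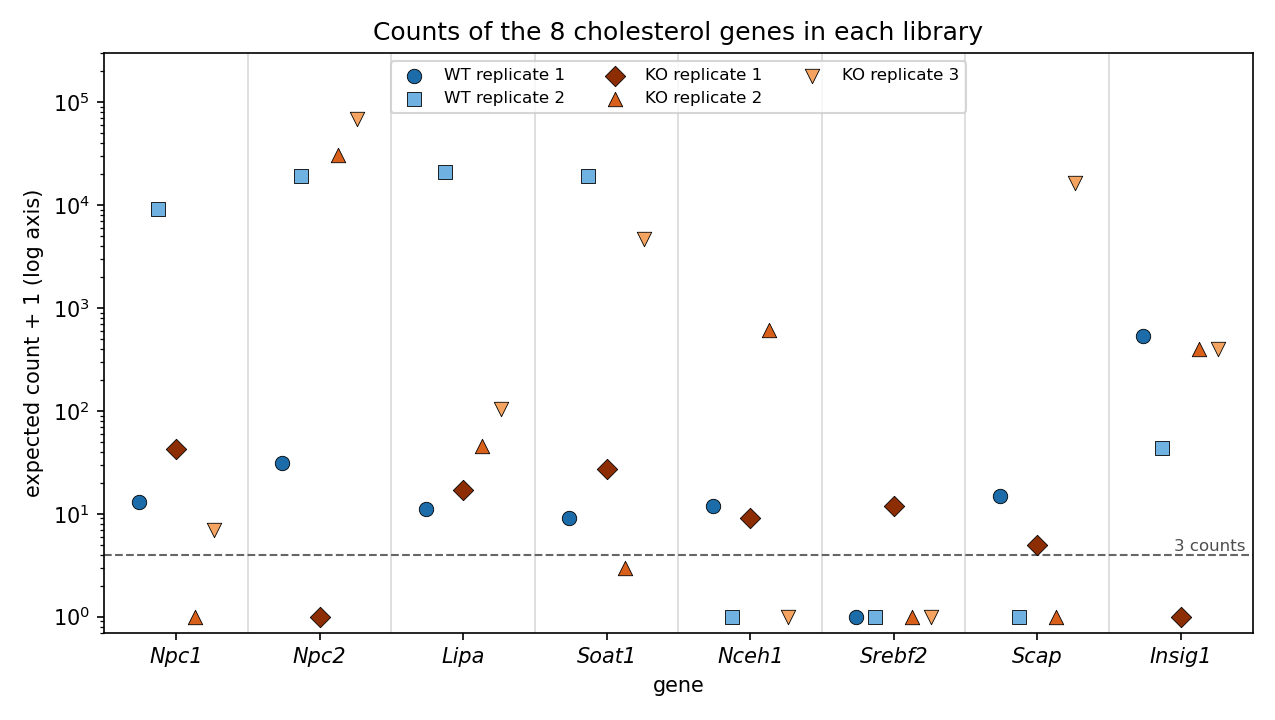
Expected count plus 1 on a log axis for each of the 8 genes in the 2 WT (blue) and 3 KO (orange to brown) libraries, 1 point per library, with a dashed line at 3 counts. Points of 1 gene spread over several orders of magnitude within a genotype, as for *Lipa* with 10 and 20792 counts in WT and *Soat1* with 26, 2 and 4651 counts in KO.

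*Lipa* encodes lysosomal acid lipase, which hydrolyzes the cholesteryl esters and triglycerides of lipoproteins. In the WT libraries it was given 10 and 20792 counts, and in the KO libraries 16, 45 and 104 counts. It was the only one of the 8 genes over the floor in all 5 libraries, and WT replicate 2 alone carried 99.2% of its normalized CPM summed over libraries. The WT mean was 283 ± 400 CPM (SD, n = 2) and the KO mean 1.42 ± 0.505 CPM (SD, n = 3) after TMM normalization, which scales libraries to a common composition. Its log2 fold change of KO over WT was −7.67 ± 5.43 (SE; edgeR's quasi-likelihood test, adjusted p = 1). Without WT replicate 2 the fold change was 1.88, so the sign rested on that library. Between the other 4 libraries, *Lipa* stayed within 0.350 to 1.99 CPM. The sum of 5 T cell markers was also highest in WT replicate 2, at 2508 CPM with 5 of 5 over the floor. It was 10.1 CPM in WT replicate 1 and 0.821 to 610 CPM in the KO libraries, and their part in the result was not tested. Each of the 5 had its highest count in WT replicate 2, but the list did not follow *Lipa* as a whole. *Cd3g* had 19179 counts there and 13275 in KO replicate 2, and *Cd3d* had 18115 there and 12795 in KO replicate 3.

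*Npc1* encodes the large membrane protein that exports cholesterol from the lysosome. Its counts were 12 and 9230 in WT and 42, 0 and 6 in KO, so WT replicate 2 was the only library with more than 100 counts and held 98.5% of the summed CPM. Means were 126 ± 177 CPM (SD, n = 2) in WT and 1.15 ± 1.90 CPM (SD, n = 3) in KO. The log2 fold change was −6.81 ± 5.77 (SE; adjusted p = 1 by edgeR's quasi-likelihood test), and 0.85 without WT replicate 2. *Npc1* shares 511 exon bases with *Rmc1*, a gene on the opposite strand. The methods do not say that strand was used in counting, so reads on this stretch could have gone to either gene. *Rmc1* had 0 and 9745 counts in WT and 0, 23054 and 9107 counts in KO, which means that KO replicates 2 and 3 had reads over *Rmc1* where *Npc1* had 0 and 6.

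*Npc2* encodes the small soluble protein that hands cholesterol to NPC1 within the lysosome. It was given 30 and 18937 counts in WT and 0, 30950 and 68423 counts in KO. High and low libraries did not follow the genotype, since both replicate 1 libraries were at 30 counts or fewer, and the other three were at 18937 or more. Means were 258 ± 364 CPM (SD, n = 2) in WT and 667 ± 654 CPM (SD, n = 3) in KO, with a log2 fold change of 1.34 ± 3.38 (SE; adjusted p = 1 by the same test). Without both replicate 1 libraries the fold change was 1.08, without WT replicate 1 it was 0.46 and without KO replicate 3 it was 0.39. Without WT replicate 2 it was 9.34, and a fit with the replicate number as a block turned it to −2.60. Only WT replicate 2 had 100 counts or more of *Npc1* and *Npc2* together, whereas KO replicates 2 and 3 had the second without the first.

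*Soat1* encodes the acyltransferase that esterifies cholesterol in the endoplasmic reticulum of macrophages, while *Nceh1* encodes a neutral hydrolase that acts on the stored esters. For *Soat1*, 8 and 19159 counts were found in WT and 26, 2 and 4651 in KO. The 2 well-covered libraries belonged to different genotypes. Means were 261 ± 369 CPM (SD, n = 2) in WT and 30.3 ± 50.7 CPM (SD, n = 3) in KO, and the log2 fold change was −3.14 ± 4.48 (SE; adjusted p = 1 by edgeR's quasi-likelihood test), or 6.77 without WT replicate 2. *Nceh1* had 11 and 0 counts in WT and 8, 615 and 0 in KO, so that KO replicate 2 held 93.1% of its summed CPM. Its means were 0.193 ± 0.273 CPM (SD, n = 2) in WT and 4.81 ± 7.79 CPM (SD, n = 3) in KO, with a log2 fold change of 4.63 ± 4.8 (SE; adjusted p = 1 by the same test). Without KO replicate 2, *Nceh1* did not pass the filter on low counts. The same library had the highest sum of 4 fibroblast markers, 531 CPM against 0 CPM in both WT libraries and 0.451 and 2.23 CPM in the other KO libraries, and their part in the result was not tested. That sum was *Dcn* (19005 counts), while *Lum* and *Col1a1* were at 0 in KO replicate 2 and *Col1a2* had 5 counts there and 111 in KO replicate 3. No library reached 100 counts for both genes of the ester cycle.

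*Srebf2*, which encodes SREBP2, was the least covered. It had 0 counts in both WT libraries and 11, 0 and 0 counts in the KO libraries, too few for the test, and no fold is given because only a single library exceeded the floor. In the other 4 libraries it was not detectable at this depth. *Gm49502*, a gene model within an intron of *Srebf2* on the same strand and without shared exon bases, had 5395 counts in WT replicate 2 and 12 in KO replicate 1, and 0 in the remaining libraries.

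*Scap*, the escort of SREBP2, had 14 and 0 counts in WT and 4, 0 and 16296 counts in KO. A single library, KO replicate 3, thus held 99.7% of the summed CPM, with means of 0.245 ± 0.347 CPM (SD, n = 2) in WT and 104 ± 180 CPM (SD, n = 3) in KO. The log2 fold change was 8.72 ± 7.38 (SE; adjusted p = 1 by edgeR's quasi-likelihood test). The fold change was 14.97 without WT replicate 1, and −0.43 with the replicate number as a block, which fits KO replicate 3 by its own term. Without KO replicate 3 the gene did not pass the filter, and in the other 4 libraries it was at 14 counts or fewer. *Scap* shares 985 exon bases with *5830462I19Rik* on the opposite strand, which had 41 counts in KO replicate 1 and 0 elsewhere.

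*Insig1*, which encodes the protein that retains SCAP, had no library above 534 counts. Its counts were 534 and 43 in WT and 0, 394 and 402 in KO, so 4 libraries were over the floor and KO replicate 1 was at 0, which allows up to 0.123 CPM. The highest library, WT replicate 1, held 51.4% of the summed CPM. Means were 9.94 ± 12.4 CPM (SD, n = 2) in WT and 5.50 ± 4.8 CPM (SD, n = 3) in KO, a log2 fold change of −0.84 ± 4.17 (SE; adjusted p = 1 by the same test). The sign turned to 2.31 without WT replicate 1. That library also had the highest sum of 5 neutrophil markers, 3592 CPM against 880 CPM in WT replicate 2 and 138 to 1502 CPM in KO, and their part in the result was not tested. The list did not move as a whole: *Ly6g* was at 0 in WT replicate 1, and *Csf3r* had 33 counts there against 7309 in WT replicate 2 and 17767 in KO replicate 2. *Scap* and *Insig1* both reached 100 counts in KO replicate 3 alone, and no library was over the floor for *Srebf2*, *Scap* and *Insig1* at once.

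Upstream sequence of 3 of these genes is shown because the sterol sensor is known to act on promoters and because ZEB1, the deleted factor, binds E-box motifs. RefSeq promoters (GRCm38.p6, 250 bases before the start site) were found for 7 of the 8 genes and searched on both strands for CACCTG (ZEB E-box), TCACNCCA (core of a sterol regulatory element) and CACGTG (palindromic E-box). The stretches below end before the earliest annotated start of the gene and run 5′ to 3′, with motif matches in capitals.
Srebf2, chr15:82147019-82147180, plus strand: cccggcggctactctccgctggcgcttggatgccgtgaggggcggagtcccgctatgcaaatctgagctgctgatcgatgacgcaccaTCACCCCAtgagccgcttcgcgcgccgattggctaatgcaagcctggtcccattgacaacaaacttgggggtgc
Insig1, chr5:28071162-28071362, plus strand: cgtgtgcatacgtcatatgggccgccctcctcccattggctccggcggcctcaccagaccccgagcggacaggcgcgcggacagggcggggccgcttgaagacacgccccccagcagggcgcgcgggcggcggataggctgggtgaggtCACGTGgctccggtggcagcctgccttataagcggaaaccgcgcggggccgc
Npc2, chr12:84773153-84773362, minus strand: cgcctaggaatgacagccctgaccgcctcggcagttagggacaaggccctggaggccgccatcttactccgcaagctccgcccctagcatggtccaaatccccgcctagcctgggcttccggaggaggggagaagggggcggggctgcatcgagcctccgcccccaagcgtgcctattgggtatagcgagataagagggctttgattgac
The *Srebf2* stretch holds TCACCCCA, which begins 162 bases before the RefSeq start. In the *Insig1* stretch CACGTG begins 101 bases before the start, and the *Npc2* stretch, from the gene with the highest KO mean of the 8, holds no match. CACCTG was found in 0 of the 7 promoters and in 17.2% of all 32851 promoters. TCACNCCA was found in 1 of 7 (3.67% of all), and CACGTG in 3 of 7, namely *Insig1*, *Nceh1* and *Scap* (6.02% of all). A match is a description of letters and was not tied to any count here.

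*Srebf2* also hosts the gene of miR-33, a microRNA known to act on transcripts of cholesterol export. Its mature 5′ arm in RefSeq (GRCm38.p6, chr15:82198127-82198147, plus strand) is shown with the seed, bases 2 to 8, in capitals.
mmu-miR-33-5p: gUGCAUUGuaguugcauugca
The microRNA's own row, *Mir33*, had 0 counts in all 5 libraries, and mature microRNAs were not measured.

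Levels of different genes were compared per length, as RPKM (CPM per kilobase of the longest principal transcript). In WT replicate 2 the order was *Lipa* (191 RPKM), *Npc2* (156 RPKM), *Soat1* (62.3 RPKM), *Npc1* (48.1 RPKM) and *Insig1* (0.434 RPKM). In KO replicate 3 it was *Npc2* (396 RPKM), *Scap* (73.6 RPKM), *Soat1* (10.6 RPKM), *Insig1* (2.85 RPKM) and *Lipa* (0.669 RPKM). KO replicate 2 had *Npc2* at 210 RPKM, followed by *Insig1* at 3.28 RPKM and *Nceh1* at 3.08 RPKM. In WT replicate 1 only *Insig1*, at 6.94 RPKM, exceeded 1 RPKM, and in KO replicate 1 none did, the highest being *Npc1* at 0.640 RPKM. *Npc2* thus led in 2 libraries of the 5, and the order of the others differed between libraries of the same genotype.

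All of the 8 genes but *Srebf2* entered the test, which covered 7905 genes in all. By edgeR's quasi-likelihood test, 0 of the 7 had an adjusted p under 0.05, as did 0 of all genes tested (0%), and 0 of the 7 had an unadjusted p under 0.05, against 86 of all genes tested (1.09%). The lowest unadjusted p of the 7 was that of *Lipa*, 0.158. Fold changes were positive for 3 and negative for 4, with a median of −0.84, beside a median of 0.78 over all genes tested. The normalized CPM of the genotypes overlapped for each of the 8 genes, whereas 11.2% of all genes tested did not overlap. By two-sided exact permutation of the genotype labels (10 arrangements), p ranged from 0.3 for *Npc1* to 1 for *Srebf2*, where 0.1 is the smallest p that 2 against 3 libraries allow. DESeq2 with default options, the tool named in the methods, called 790 of 6519 genes with an adjusted p (12.1%) and 0 of the 6 members that had one, the lowest being *Lipa* (log2 fold change −6.89 ± 3.06 (SE), adjusted p = 0.131). Counts were also simulated with the common dispersion of these data (6.44) for every gene and changes of a fixed size. On them edgeR recovered none of the changed genes and DESeq2 made more false than true calls. Real genes differ in their spread, so this cannot tell which real changes were missed or which real calls are false. Neither the absence of edgeR calls nor the DESeq2 calls are taken as firm.

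**Figure D2:**
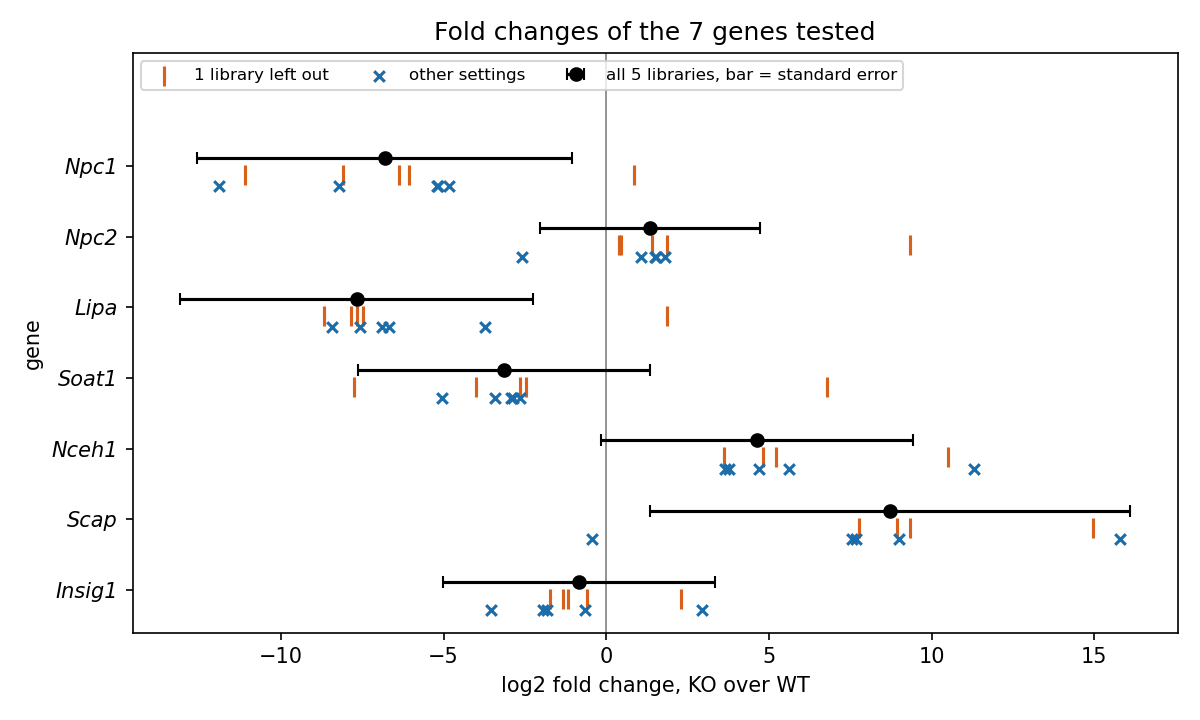
Log2 fold change of KO over WT for the 7 genes tested: black points with standard errors use all 5 libraries, orange ticks leave out 1 library each, and blue crosses are the other settings (RLE size factors, no filter, DESeq2, replicate block, both replicate 1 libraries left out). Ticks lie on both sides of 0 for *Npc1*, *Lipa*, *Soat1* and *Insig1*, and the crosses do so for *Npc2*, *Scap* and *Insig1*.

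The concentration of a gene's reads in 1 library was common in the data. Over the 7 genes tested, the library with the most reads held a median of 93.1% of the summed normalized CPM, beside 92.8% over the 28 further pathway genes tested and 75.1% over all 7905 genes. A share over 90% was found for 4 of the 7, for 15 of the 28 (53.6%) and for 26.5% of all genes. This difference was not tested.

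The surrounding pathway was read from a list of 49 further genes, of which 43 were over the floor in at least 1 library, 28 reached 100 counts somewhere and 0 did so in all 5. By library, 5 and 17 of the 49 reached 100 counts in WT and 2, 7 and 12 in KO. Of the 28 genes tested, 0 were called by edgeR's quasi-likelihood test in either direction and 0 had an unadjusted p under 0.05. There were 15 positive and 13 negative fold changes, with a median of 0.30.

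Among 17 traffic genes, *Lamp1* and *Lamp2*, which encode the abundant glycoproteins of the lysosomal membrane, were the best covered. *Lamp1* had 423 and 9388 counts in WT and 27, 23019 and 14243 in KO (log2 fold change 0.93 ± 4.04, SE). *Lamp2* had 1 and 16170 counts in WT and 17, 19880 and 18523 in KO (log2 fold change 0.25 ± 3.81, SE). Both were lower in the replicate 1 libraries than in the other three, as was *Npc2*. Over the table, of 1525 genes with at least 100 counts in those 3 libraries, 664 (43.5%) were under 100 in both replicate 1 libraries. *Scarb2*, encoding the lysosomal membrane protein LIMP2, had 9 and 16155 counts in WT and 52, 13 and 5540 in KO (log2 fold change −2.61 ± 4.51, SE), which resembled *Soat1*. All 3 had an adjusted p of 1 by edgeR's quasi-likelihood test.

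Of the 6 genes of esters and lipid droplets, *Plin3* had 2932 and 552 counts in WT and 159, 0 and 6 in KO (log2 fold change −3.79 ± 5.01 (SE), adjusted p = 1 by the same test). *Plin2*, the main droplet coat gene of foam cells, was chosen after its values were seen. It had 0 and 66990 counts in WT and 3, 84750 and 111914 in KO. *Soat2*, the related acyltransferase of liver and gut, was at or under 1 count in every library.

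Of 6 genes of SREBP processing and uptake, 2 reached 100 counts in any library. *Mbtps1*, the first protease that cuts SREBP, was at 49 and 12529 counts in WT and 24, 0 and 4 in KO (log2 fold change −8.06 ± 5.96 (SE), adjusted p = 1 by edgeR's quasi-likelihood test). Of 20 synthesis genes, 6 reached 100 counts in any library, and 5 of these did so in a single one. *Fdft1* and *Acat2* were at 0 in all 5.

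**Figure D3:**
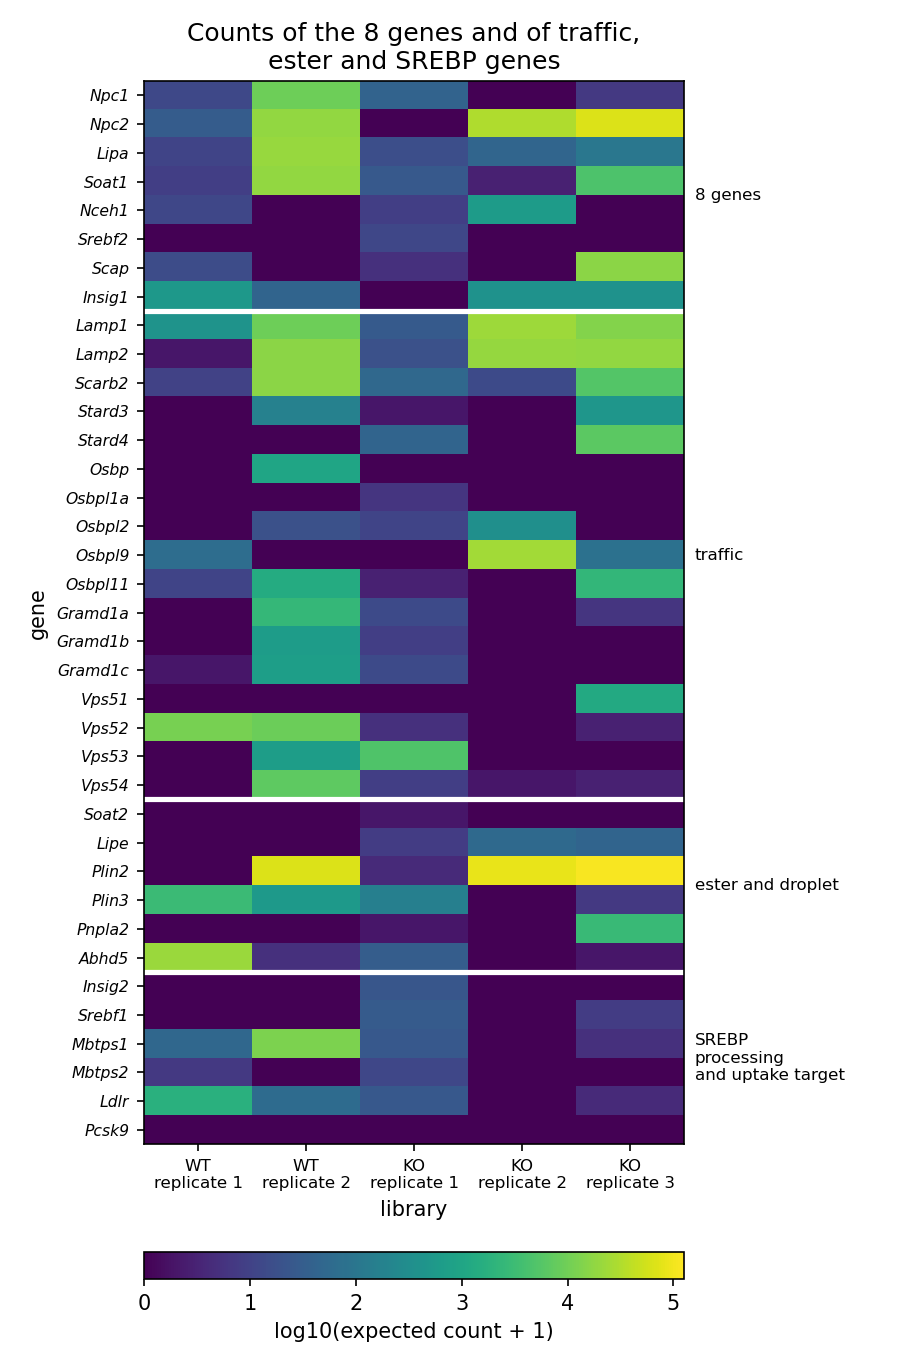
Log10 of the expected count plus 1 for the 8 genes (top block) and for the traffic (17), ester and droplet (6) and SREBP processing and uptake (6) genes of the pathway list (lower blocks), with 1 column per library. Bright cells change from column to column within a genotype, and the replicate 1 columns hold 5 (WT) and 2 (KO) of these list genes at 100 counts or more.

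Genes of the list were also matched to the 8 by the libraries in which they were over the floor, over 5 libraries. *Lipa* shared its pattern with *Scarb2* and *Lamp1*, as did 1085 of the 21705 genes over the floor anywhere. *Npc1* and *Soat1* shared theirs with each other and with *Plin3* and *Mbtps1* (1.66% of genes), and *Npc2* and *Insig1* with each other (1.85% of genes). *Srebf2* shared the pattern of detection in KO replicate 1 alone with 9 list genes, among them *Sqle*, *Hmgcs1* and *Insig2*, at 4 to 37 counts. This pattern was also the most common one compared here, with 37.8% of genes. *Nceh1* and *Scap* had no match in the list.

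By DESeq2, 3 of the 22 list genes with an adjusted p were called, beside the 12.1% of all genes given above. *Osbp*, a sterol transfer protein, had 973 counts in WT replicate 2, stood at 0 elsewhere and did not pass the filter for edgeR. *Vps52*, of the GARP complex that returns sorting receptors to the Golgi, had 11243 and 9103 counts in WT and 4, 0 and 2 in KO (edgeR log2 fold change −11.42 ± 6.12 (SE), adjusted p = 1). *Stard4*, a soluble sterol carrier, had 0 counts in both WT libraries and 44, 0 and 6506 counts in KO. These 3 were named after their values were seen. Of them only *Vps52*, which was picked by a call on these same values, had groups that did not overlap. The groups also did not overlap for 11.2% of all genes tested, and they overlapped for each of the 8 genes.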

How the data were processed

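RNAseq counts of 5 libraries (2 WT, 3 KO, grouped by the genotype in the labels) were used. Reads were aligned to GRCm38 by STAR and summarized by RSEM with GENCODE version 25, per the methods; the submitters' processing notes give the versions STAR 2.5.3a and RSEM 1.3.0. The authors deposited expected counts, whole-numbered and not normalized, of 55487 genes. Libraries were prepared with an ultra-low-input kit that amplifies cDNA. Depth and the floor of 3 counts are given with the results.

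Counts were tested with edgeR 4.0.16 in R 4.3.3 (quasi-likelihood, TMM, no covariate, filterByExpr with a minimum count of 10, Benjamini-Hochberg over 7905 genes, threshold 0.05). The standard error is the size of the log2 fold change divided by the square root of the F statistic. Exact permutation used log2 CPM with a prior count of 2. CPM in means and RPKM use TMM factors; sums over lists use total counts. DESeq2 1.42.0 was an alternative, with RLE, no filter, the replicate block and left-out libraries. Coordinates and lengths are from GENCODE M21 (GRCm38). Python 3.11.15 drew the figures.

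The genes and lists were chosen with earlier results of these data known. Named are all 8 genes, *Zeb1*, *Apoe* and *Lyz2* as label checks, list genes over the floor in at least 4 libraries or called, and list genes with the detection pattern of one of the 8; overlapping genes, single markers, *Fdft1*, *Acat2*, *Soat2* and the other genes were chosen after their values were seen. Some items that the rule would name are not reported here.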

Additional observations from a re-analysis of the deposited data

How the results depend on the processing

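None of the 8 genes was called (0 genes) under the 10 alternatives run, which were RLE size factors, no filter, DESeq2, the replicate block, each library left out in turn, and both replicate 1 libraries left out, with a lowest adjusted p of 0.131 (*Lipa*, DESeq2). By DESeq2 calls went from 0 to 790 over all genes and from 0 to 3 in the pathway list. On the counts simulated with the same dispersion for every gene, DESeq2 made more false than true calls and edgeR recovered none of the changed genes. Real genes differ in their spread, and the cause of the added calls in the real data was not tested. With both replicate 1 libraries left out, 2 genes were called, *Ccl6* and *Tmsb4x*, neither in the list. A lone WT library was assumed to vary like the KO libraries.

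Signs of uncalled fold changes turned as follows. The replicate block gave −2.60 for *Npc2* and −0.43 for *Scap*, and without both replicate 1 libraries *Insig1* was at 2.94. Replicate 3 exists only in KO, so the block fits KO replicate 3 by its own term, and that library adds nothing to the genotype effect. Leaving out 1 library, values ranged from −11.12 to 0.85 for *Npc1*, from −8.66 to 1.88 for *Lipa* and from −7.76 to 6.77 for *Soat1*, each positive only without WT replicate 2, and from −1.73 to 2.31 for *Insig1*, positive only without WT replicate 1. *Nceh1* kept its sign in 9 of 9 fits, but without WT replicate 1 it moved from 4.63 to 10.49 and *Scap* from 8.72 to 14.97 (11.29 and 15.80 without both replicate 1 libraries). Both genotypes have a replicate 1 and a replicate 2, whose differences had a correlation of 0.14 across genes, which are not independent; the labels do not say what the numbers share. The replicate block gave 0 calls, with little information left to estimate the spread. *Srebf2* entered the edgeR test only with no filter on low counts. *Nceh1* without KO replicate 2 and *Scap* without KO replicate 3 fell under that filter and could not be fitted.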
